A study of Sus scrofa with 4 samples.

Results

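The thick ascending limb and the distal convoluted tubule of the pig kidney were followed through 10 of the 26466 gene symbols counted in each library. They were chosen by symbol, as genes known for these 2 neighbouring stretches of the nephron: UMOD, SLC12A1, CLDN16, EGF and KCNJ1 for the thick ascending limb, and SLC12A3, KCNJ10, TRPM6, WNK4 and PVALB for the distal convoluted tubule. EGF is also made in the distal convoluted tubule and KCNJ1 further along the nephron, so the division is by the best known site. RNA was sequenced from kidneys of genetically modified pigs, with 4 libraries in 4 groups of 1. The first group was a kidney of the genotype GalT-/-;hCD39;hCD46;hCD55;TBM taken 6 weeks after transplantation into a non-human primate, and the second a kidney of the genotype GalT-/-;hCD39;hCD55 taken 4 weeks after. The other groups were untransplanted kidneys of the same genotypes. GalT-/- is the loss of the galactosyltransferase that makes the alpha-Gal antigen, and it was shared by all 4 groups, as were human CD39 and CD55. Human CD46 and thrombomodulin (TBM) were added in one genotype, called CD39/CD46/CD55/TBM here, and the other is called CD39/CD55. The sources used here do not give the promoters of the transgenes, the age of the pigs, or whether a library holds 1 animal or several. The stated purpose of the series was to pick the donor genotype that better lessens rejection by the immune system.

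The thick ascending limb takes up sodium, potassium and chloride from the urine through the cotransporter SLC12A1, the target of loop diuretics. Potassium returns to the urine through the channel KCNJ1, and the resulting voltage drives calcium and magnesium between the cells through pores formed by CLDN16. The same cells secrete uromodulin (UMOD), the most abundant protein of normal urine. The distal convoluted tubule takes up sodium chloride through SLC12A3, the target of thiazide diuretics, under the control of the kinase WNK4. It also sets the final uptake of magnesium through the channel TRPM6, which EGF stimulates. The potassium channel KCNJ10 holds the voltage of its blood-facing membrane, and PVALB (parvalbumin) is a calcium-binding protein of its early part.

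Total counts ranged from 10346863 to 14092905 per library. RN18S and 3 loci treated as ribosomal RNA took 18.9% and 22.4% of counts in the transplanted kidneys, against 12.6% and 10.7% in the untransplanted ones, in each case with CD39/CD46/CD55/TBM first, and that order is used throughout. All 10 members had at least 16 counts in every library, above the 10 counts that a gene needed in any 1 library to be tested. Together they took 0.0541% and 0.0892% of all counts in the transplanted kidneys and 0.182% and 0.386% in the untransplanted ones. UMOD made up most of that in each library but the transplanted one of CD39/CD46/CD55/TBM, where it had 2214 of 5600 member counts. Levels below are scaled CPM, the usual CPM after scaling by the TMM factors of edgeR. They are compared between libraries and not between genes, since the part of each transcript that was read is not settled. In tissue RNA, fewer cells of a type and less RNA per cell cannot be told apart.

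Transplanted and untransplanted kidneys were first compared over both genotypes, 2 libraries against 2. SLC12A3, EGF, WNK4 and PVALB fell, and no member rose. That is 4 of 10 members, against 2.71% of the 18168 genes tested that fell and 1.24% that rose (edgeR's quasi-likelihood test, Benjamini-Hochberg adjusted p under 0.05). At an unadjusted p under 0.05 the same test found 5 members lower and 0 higher, against 10.7% and 8.99% of all genes, and DESeq2's Wald test and limma voom each found 5 lower and 0 higher, the fifth being UMOD. Over all genes DESeq2's Wald test called 4.73% lower and 2.27% higher, and limma voom 2.45% and 0.848%. Of the members that fell, 3 were of the distal convoluted tubule and 1 of the thick ascending limb. The median log2 fold change of the 10 was -1.36, against 0.028 over all genes. It was -2.21 for the 5 distal convoluted tubule members and 0.15 for the 5 thick ascending limb members. A median of 5 genes can turn on 1 gene, so these medians do not show a difference between the segments. The fitted changes of UMOD (-2.53) and EGF (-2.39) were near those of WNK4 (-2.21) and PVALB (-2.45). For 5 members both transplanted libraries lay under both untransplanted ones, which was so for 25.5% of all genes. The remaining 5, SLC12A1, CLDN16, KCNJ1, KCNJ10 and TRPM6, had overlapping groups.

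**Figure D1:**
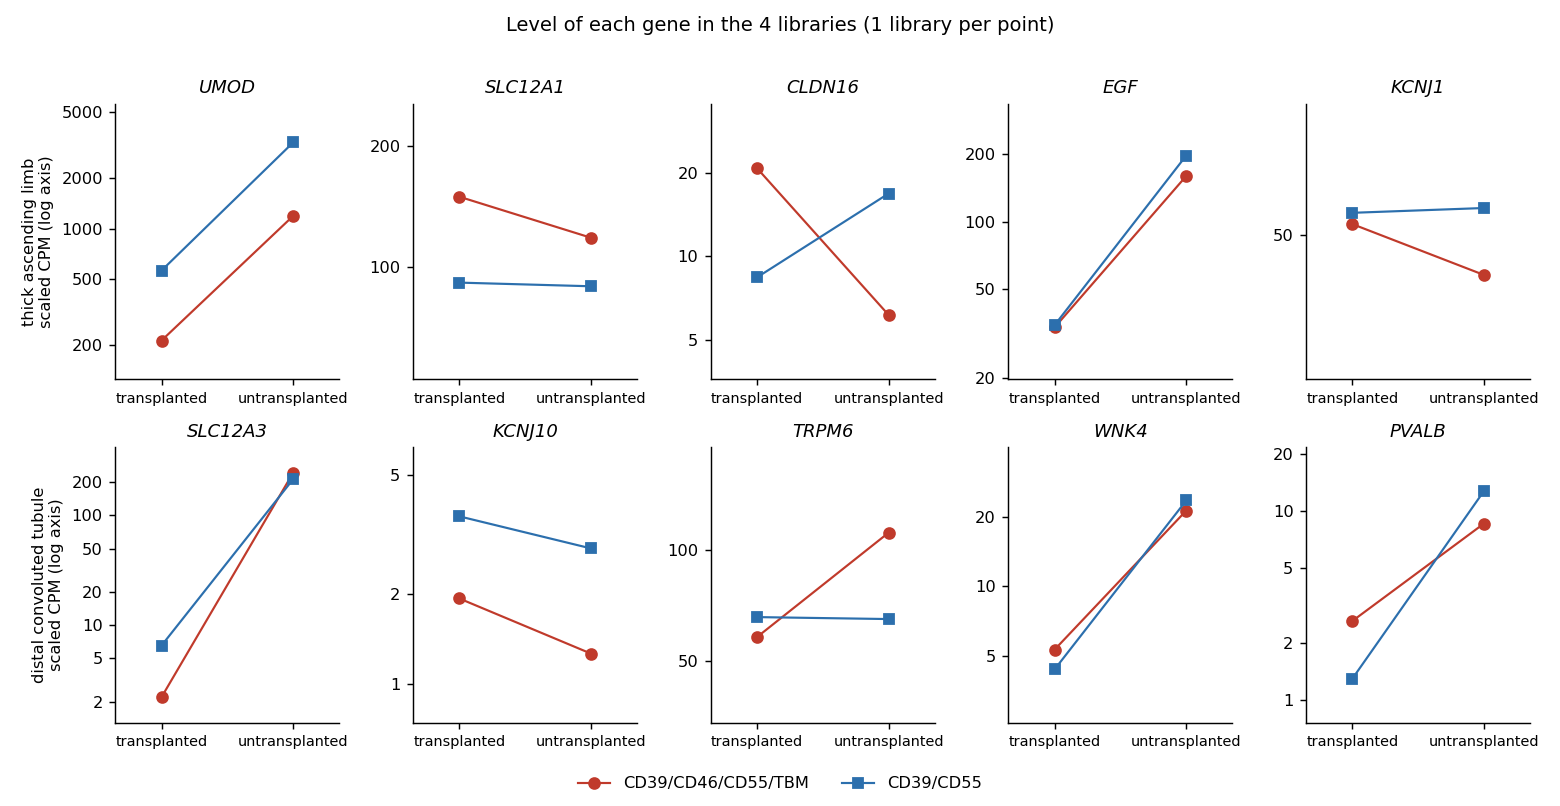
Scaled CPM (log axis, its own range in each panel) of the 10 genes in the 4 libraries, with thick ascending limb genes in the upper row and distal convoluted tubule genes in the lower row, and the 2 libraries of a genotype joined by a line. UMOD, EGF, SLC12A3, WNK4 and PVALB were lower in both transplanted libraries than in both untransplanted ones, and the lines of CLDN16 cross.

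SLC12A3, the thiazide-sensitive sodium chloride cotransporter (gene ID 110260927, chromosome 6, 18844752 to 18885497, Sscrofa11.1), had the widest change of the members. It had 23 and 81 counts in the transplanted kidneys, or 2.22 and 6.55 scaled CPM, against 3094 and 2934 counts, or 245 and 214 scaled CPM, in the untransplanted kidneys. The transplanted level averaged 4.38 ± 3.06 scaled CPM and the untransplanted level 229 ± 21.8 (SD, n = 2 libraries each). The untransplanted libraries were thus close to each other, and both transplanted ones were far below them. The log2 fold change was -5.69 (SE 0.61, adjusted p = 0.00098), and SLC12A3 passed the test under each of the 13 alternatives run, with adjusted p between 6.67e-24 and 0.00423. Within CD39/CD46/CD55/TBM the transplanted level was 108-fold lower, a log2 ratio of -6.75 (95% counting interval -7.44 to -6.19). Within CD39/CD55 it was 32.5-fold lower, a log2 ratio of -5.02 (-5.37 to -4.71).

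WNK4, the kinase that governs how much SLC12A3 is active (chromosome 12, 20064688 to 20081781), fell with it but by less. It had 5.32 and 4.36 scaled CPM in the transplanted kidneys and 21.3 and 23.6 in the untransplanted ones, from 55 and 54 counts and from 270 and 324 counts. The libraries of each state lay close together and the states were well apart. The log2 fold change was -2.21 (SE 0.44, adjusted p = 0.0171), with adjusted p between 0.000203 and 0.0281 over the 13 alternatives. The ratios were 3.99-fold lower in CD39/CD46/CD55/TBM and 5.37-fold lower in CD39/CD55.

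PVALB, the calcium-binding protein parvalbumin (chromosome 5, 10953559 to 10973300), had 27 and 16 counts in the transplanted kidneys and 108 and 174 in the untransplanted ones, which is 2.61 and 1.29 against 8.54 and 12.7 scaled CPM. The log2 fold change was -2.45 (SE 0.56, adjusted p = 0.0288). It did not pass without the untransplanted CD39/CD55 library (adjusted p = 0.0981) or with a filter of 50 counts (adjusted p = 0.0546), and its adjusted p ran from 0.00105 to 0.0981 over the alternatives. The gene lies inside the span of NCF4, a gene of phagocytes. NCF4 had 53 and 47 counts in the transplanted kidneys and 142 and 200 in the untransplanted ones, which exceeded PVALB by 26 and 31 counts in the transplanted kidneys and by 34 and 26 in the untransplanted ones. How reads in both spans were counted is not stated, and the part of either gene in the other's count cannot be told apart.

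The other distal convoluted tubule members did not pass. TRPM6, the magnesium channel of the urine-facing membrane (chromosome 1, 227809511 to 228037923), had 58.0 and 65.7 scaled CPM in the transplanted kidneys and 111 and 64.9 in the untransplanted ones. The untransplanted kidney with CD39/CD46/CD55/TBM stood above the other libraries. The log2 ratio was -0.94 (-1.08 to -0.80) in CD39/CD46/CD55/TBM and 0.018 (-0.12 to 0.16) in CD39/CD55, and over both genotypes the adjusted p was 0.542. KCNJ10 (chromosome 4, 90421956 to 90457406) had 20 and 45 counts in the transplanted kidneys and 16 and 39 in the untransplanted ones. A difference in KCNJ10 was not detectable at this depth in either pair, with counting intervals of -0.41 to 1.66 and of -0.29 to 1.01 on the log2 scale.

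Among the thick ascending limb members, EGF fell. The gene (chromosome 8, 112235607 to 112330062) encodes the precursor of epidermal growth factor, which kidney tubules release into urine and blood. It had 33.6 and 34.4 scaled CPM in the transplanted kidneys, from 348 and 426 counts, and 160 and 197 in the untransplanted ones, from 2021 and 2707 counts. The transplanted level averaged 34 ± 0.561 scaled CPM and the untransplanted level 178 ± 26.5 (SD, n = 2 libraries each). The log2 fold change was -2.39 (SE 0.43, adjusted p = 0.0111), and EGF passed under each of the 13 alternatives, with adjusted p between 1.74e-06 and 0.0185. The ratio was 4.74-fold lower in CD39/CD46/CD55/TBM and 5.72-fold lower in CD39/CD55.

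UMOD (chromosome 3, 25473048 to 25492286) took 0.0214% and 0.0600% of all counts in the transplanted kidneys and 0.114% and 0.320% in the untransplanted ones. The exact 95% binomial interval was 0.0205% to 0.0223% for the lowest of these shares and 0.317% to 0.323% for the highest. Its level was 214 and 561 scaled CPM in the transplanted kidneys, against 1193 and 3283 in the untransplanted ones. The states did not overlap, and within each state CD39/CD46/CD55/TBM was the lower. The ratio of transplanted to untransplanted was 5.57-fold lower in CD39/CD46/CD55/TBM and 5.85-fold lower in CD39/CD55. The log2 ratios were -2.48 (-2.54 to -2.41) and -2.55 (-2.59 to -2.51). Over both genotypes the log2 fold change was -2.53 (SE 0.66, adjusted p = 0.0529), so UMOD missed the threshold in that test. Over the alternatives the adjusted p ran from 0.000224, with genotype as a block, to 0.292, without the untransplanted CD39/CD55 library. UMOD also passed without the transplanted CD39/CD55 library (adjusted p = 0.0005) and, at an adjusted p of 0.00809, when the CD39/CD46/CD55/TBM library from an untransplanted kidney was left out.

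SLC12A1 and KCNJ1, which work together in the salt uptake of the thick ascending limb, did not pass. SLC12A1 (chromosome 1, 123481892 to 123571655) had 150 and 91.6 scaled CPM in the transplanted kidneys and 118 and 89.8 in the untransplanted ones, with a fitted log2 change of 0.21 (SE 0.44) and an adjusted p of 0.823. KCNJ1 (chromosome 9, 55779020 to 55812761) had 53.0 and 56.1 scaled CPM in the transplanted kidneys and 40.9 and 57.5 in the untransplanted ones (adjusted p = 0.865). The groups overlapped for both genes, and for KCNJ1 the transplanted libraries lay between the untransplanted ones. The span of SLC12A1 overlaps that of the long noncoding RNA gene LOC102161909, which had 1271 and 970 counts in the transplanted kidneys and 1520 and 1293 in the untransplanted ones. Counts of SLC12A1 were 1550 and 1134, and 1499 and 1232, so both genes had counts of similar size in each library. Without strand, reads of the pair cannot be told apart, and the level of SLC12A1 is uncertain to that extent. CTXN2 also overlaps the span of SLC12A1, with 35 and 15 counts in the transplanted kidneys and 46 and 20 in the untransplanted ones.

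CLDN16, which forms paracellular pores for magnesium and calcium (chromosome 13, 127808599 to 127831081), went opposite ways in the genotypes. With CD39/CD46/CD55/TBM it had 215 counts in the transplanted kidney and 78 in the untransplanted one, a log2 ratio of 1.75 (1.37 to 2.15). With CD39/CD55 it had 104 counts in the transplanted kidney and 231 in the untransplanted one, a log2 ratio of -1.0 (-1.35 to -0.66). The difference of these log2 ratios was 2.74 (95% Wald counting interval 2.24 to 3.24). With 1 library in each group this compares 4 libraries, and genotype, recipient and weeks after transplantation cannot be told apart in it. Over both genotypes the adjusted p of CLDN16 was 0.78.

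**Figure D2:**
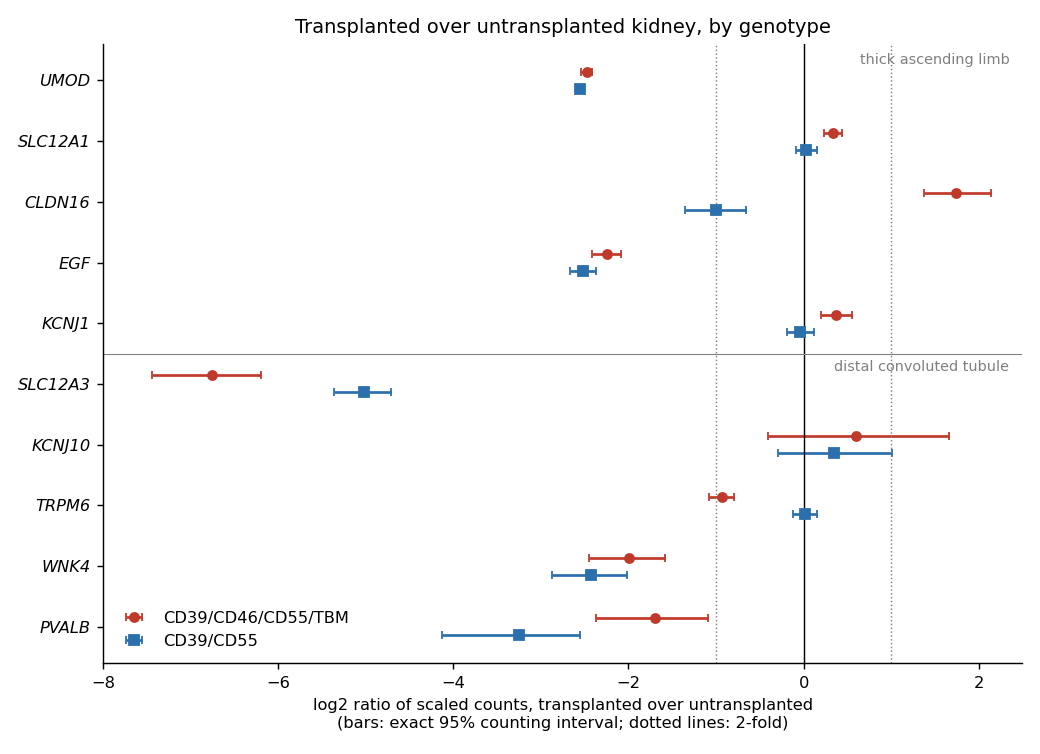
Log2 ratio of scaled counts, transplanted over untransplanted, of each gene within each genotype, with exact 95% counting intervals and dotted lines at 2-fold. UMOD, EGF, SLC12A3, WNK4 and PVALB lie beyond 2-fold on the lower side in both genotypes, SLC12A3 farthest at -6.75 and -5.02, and CLDN16 lies on opposite sides.

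Within each genotype, a gene was called lower or higher when its ratio was at least 2-fold and the counting interval excluded 1. By this rule UMOD, SLC12A3, EGF, WNK4 and PVALB were lower in the transplanted kidney of CD39/CD46/CD55/TBM, where 16.3% of genes were called lower, and CLDN16 was higher, where 15.9% were called higher. In CD39/CD55 UMOD, SLC12A3, EGF, WNK4 and PVALB were lower, against 13.7% of genes, and no member was higher, against 13.2% of genes. Lower in both genotypes were thus 5 of 10 members and 7.63% of all genes. CLDN16 lay at the edge of the rule in CD39/CD55 and was called lower there with DESeq2's size factors. The change with transplantation differed between the genotypes by at least 2-fold for SLC12A3, with a difference of log2 ratios of -1.73 (-2.40 to -1.07), and for PVALB, with 1.56 (0.62 to 2.51), besides CLDN16. Over all genes such differences were called lower for 11.5% and higher for 10.3%. For UMOD the difference was 0.070 (-0.0043 to 0.14). These intervals hold counting error and no spread between kidneys. Genotype, recipient and weeks after transplantation cannot be told apart in these differences.

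**Figure D3:**
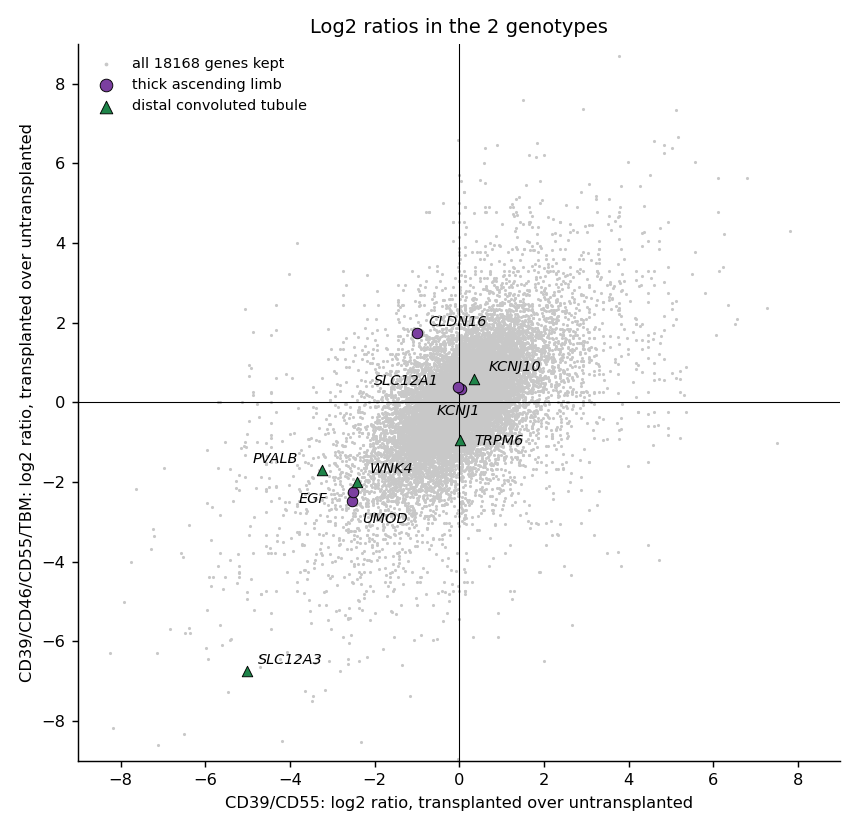
Each point is 1 of 18168 genes, placed by its log2 ratio of transplanted over untransplanted in CD39/CD55 (horizontal) and in CD39/CD46/CD55/TBM (vertical), with the thick ascending limb genes as circles and the distal convoluted tubule genes as triangles; 4 genes lie outside the axes. SLC12A3 lies near the lower left edge of all genes, UMOD, EGF, WNK4 and PVALB lie within its lower left part, and SLC12A1 and KCNJ1 lie near the centre.

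Ratios between members within a library need no scaling, and their change shows unequal change of the 2 genes. SLC12A3 was set against TRPM6, a distal convoluted tubule channel gene whose span overlaps no other annotated gene. There were 0.0383 and 0.0996 SLC12A3 counts per TRPM6 count in the transplanted kidneys and 2.20 and 3.29 in the untransplanted ones, which is 57.4-fold and 33.1-fold lower. TRPM6 itself was 1.91-fold lower in the transplanted kidney of CD39/CD46/CD55/TBM, so the ratios to it in that genotype include this change. SLC12A3 counts per WNK4 count were 0.418 and 1.5 in the transplanted kidneys and 11.5 and 9.06 in the untransplanted ones. The fall of SLC12A3 was thus larger than that of WNK4 in both genotypes, with log2 changes of the ratio of -4.78 (-5.50 to -4.05) and -2.59 (-3.12 to -2.07). UMOD counts per KCNJ1 count, within the thick ascending limb list, were 4.04 and 10 in the transplanted kidneys and 29.2 and 57.1 in the untransplanted ones. UMOD counts per EGF count were 6.36 and 16.3 in the transplanted kidneys and 7.47 and 16.6 in the untransplanted ones. The UMOD to EGF ratio therefore differed more between the genotypes than between the states, with log2 changes on transplantation of -0.23 (-0.41 to -0.055) and -0.030 (-0.18 to 0.12).

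**Figure D4:**
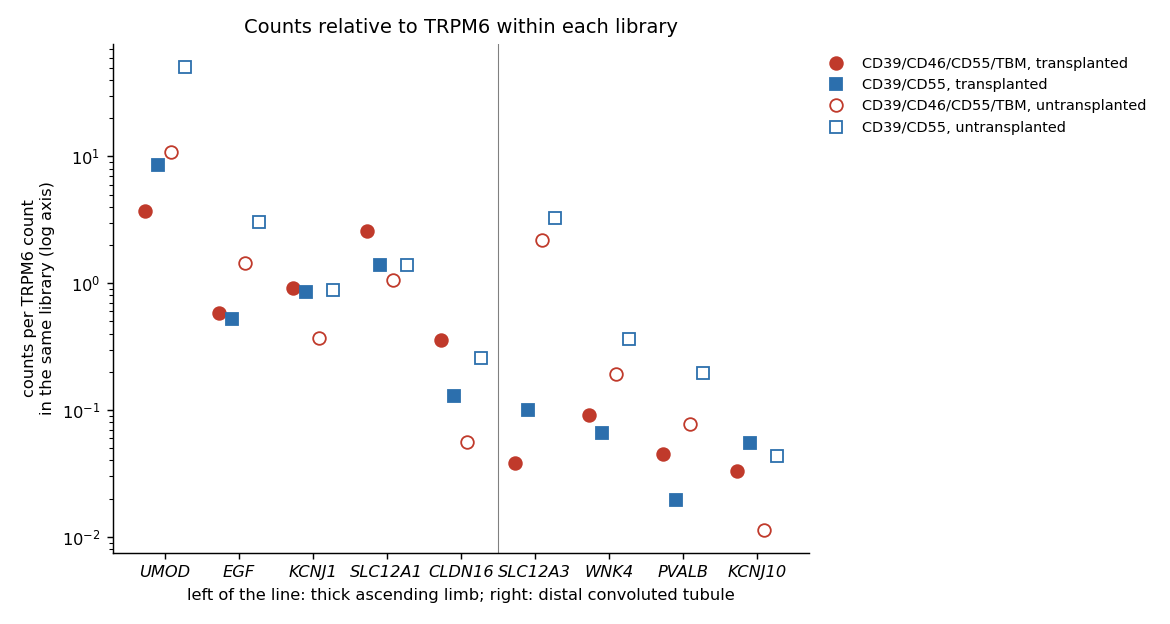
Counts of each gene per TRPM6 count in the same library (log axis), with filled symbols for transplanted and open symbols for untransplanted kidneys. For SLC12A3 the filled symbols lie at 0.0383 and 0.0996 and the open ones at 2.20 and 3.29. For KCNJ1 the filled symbols lie at 0.913 and 0.854 and the open ones at 0.368 and 0.886. The open symbol at 0.368 is of CD39/CD46/CD55/TBM, where TRPM6 had 111 scaled CPM, against 58.0 in the transplanted kidney.

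The genotypes were compared in the same way, over both states. No member and no gene among 18168 passed in either direction (edgeR's quasi-likelihood test, adjusted p under 0.05). The background was 0% in each direction, and at an unadjusted p under 0.05 it was 1.43% lower and 1.05% higher, with 0 members among either. Among the members DESeq2's Wald test and limma voom also called 0 lower and 0 higher. Over all genes limma voom called 0, and DESeq2's Wald test called 0.0378% lower and 0.0907% higher of the 13236 genes it gave an adjusted p, with KCNJ10 not among these. For the members, adjusted p in edgeR's test was between 0.982 and 0.998. Between the untransplanted kidneys, UMOD, CLDN16 and KCNJ10 were called lower in CD39/CD46/CD55/TBM, against 7.89% of genes, and no member was called higher, against 8.16%. UMOD had a log2 ratio of -1.46 (-1.49 to -1.43) there, CLDN16 -1.44 (-1.84 to -1.07) and KCNJ10 -1.14 (-2.11 to -0.29). Between the transplanted kidneys, UMOD and SLC12A3 were called lower in CD39/CD46/CD55/TBM, against 11.0% of genes, and CLDN16 was called higher, against 11.0%. UMOD had a log2 ratio of -1.39 (-1.46 to -1.32) there and SLC12A3 -1.54 (-2.29 to -0.88). With 1 library a side, genotype cannot be told apart from other differences between the 2 libraries in the untransplanted pair. In the transplanted pair, genotype, recipient and 6 against 4 weeks after transplantation cannot be told apart either.

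The members were then set beside other genes of the same segments. Of 16 other thick ascending limb genes measured, 1 fell and 0 rose, with a median log2 fold change of -0.52. The gene that fell was CLDN19, which joins CLDN16 in the cation pores, at 9.47 and 9.38 scaled CPM in the transplanted kidneys and 29.7 and 56.3 in the untransplanted ones (log2 fold change -2.19, SE 0.46, adjusted p = 0.0206). CLDN19 did not pass without the untransplanted CD39/CD55 library (adjusted p = 0.116), and its adjusted p over the alternatives ran from 0.000119 to 0.116. At an unadjusted p under 0.05, 3 of the 16 were lower and 0 higher, and 2 and 0 passed in DESeq2's Wald test and 1 and 0 in limma voom.

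Of 21 other distal convoluted tubule genes measured, among them the kinases and ligases of the WNK4 pathway and genes of magnesium handling, none passed, with a median log2 fold change of 0.22. At an unadjusted p under 0.05, 1 was lower and 1 higher, DESeq2's Wald test called 1 lower and 0 higher, and limma voom called 0 in each direction. KCNJ16, which forms a channel with KCNJ10, had 84.6 and 99.97 scaled CPM in the transplanted kidneys and 212 and 224 in the untransplanted ones, a log2 fold change of -1.24 (SE 0.42) with adjusted p = 0.128. NEDD4L, a ubiquitin ligase that removes sodium transport proteins, had 315 and 90.8 scaled CPM in the transplanted kidneys and 116 and 70.0 in the untransplanted ones, a fitted log2 change of 1.13 (SE 0.56) with adjusted p = 0.29. These were the 2 with the largest absolute fitted change on that list.

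In the connecting tubule, the next segment along, 1 of 8 genes fell and 0 rose, with a median of -0.38. KLK1, which encodes tissue kallikrein, a secreted protease, had 56 and 9 counts in the transplanted kidneys and 2213 and 2539 in the untransplanted ones (log2 fold change -5.89, SE 0.76, adjusted p = 0.00207). It passed under each of the 13 alternatives, with adjusted p between 1.05e-16 and 0.00816. Paralogs of the members include cotransporters, potassium channels, TRPM channels and a WNK kinase with other sites of action. Of 21 measured, 3 fell and 0 rose, with a median of -0.27, and DESeq2's Wald test and limma voom gave the same counts. The 3 were the inward rectifier potassium channel genes KCNJ15, KCNJ2 and KCNJ12, with log2 fold changes of -2.34 (adjusted p = 0.0194), -2.32 (adjusted p = 0.0238) and -2.52 (adjusted p = 0.0287). KCNJ15 had 86.0 and 125 scaled CPM in the transplanted kidneys and 465 and 601 in the untransplanted ones, and its adjusted p ran from 7.63e-06 to 0.0405. KCNJ2 did not pass when a CD39/CD46/CD55/TBM library was left out, with an adjusted p of 0.0605 without the transplanted one and 0.0537 without the untransplanted one, and KCNJ12 did not pass with a filter of 50 counts (adjusted p = 0.0557). Adjusted p of KCNJ2 ran from 0.000411 to 0.0605 and that of KCNJ12 from 0.000434 to 0.0557.

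**Figure D5:**
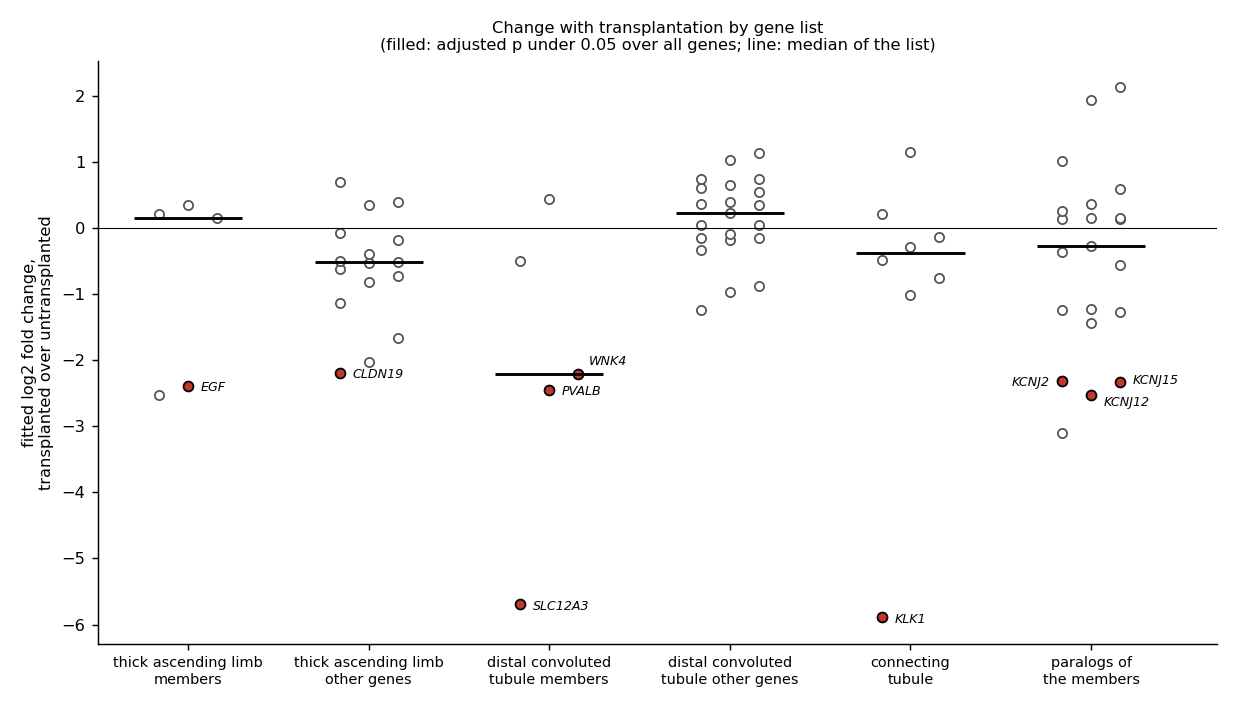
Fitted log2 fold change, transplanted over untransplanted, of each measured gene by list, where filled points passed the test over all genes and the line is the median of the list. The distal convoluted tubule members have a median of -2.21, and the 21 other genes of that segment a median of 0.22 with none filled.

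The genes whose pattern over the 4 libraries was nearest to UMOD and to SLC12A3 were found by Euclidean distance between centred log2 scaled CPM, among 8960 other genes with a mean of at least 10 scaled CPM and a symbol of their own. The 5 nearest to UMOD were SLC17A2, SLC22A12, AKR1A1, AK3 and DNASE1L2, at distances of 0.29 to 0.40. SLC22A12, a urate transporter of the proximal tubule, had 111 and 341 counts in the transplanted kidneys and 793 and 1745 in the untransplanted ones. The 5 nearest to SLC12A3 were GATM, MT1D, SLC5A12, CYP2D25 and CCL16, at distances of 0.54 to 1.61, so fewer genes lay close to it. MT1D has near-identical copies among the metallothioneins, and its count is uncertain. GATM, an enzyme of creatine synthesis, had 56 and 150 counts in the transplanted kidneys and 6889 and 4355 in the untransplanted ones. With 4 libraries, such nearness describes these libraries and no more.

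Markers of other kidney cells differed between the states as well. Of 10 proximal tubule markers 7 fell, and their summed level was 3083 and 5886 scaled CPM in the transplanted kidneys and 12790 and 11262 in the untransplanted ones, with SLC22A6 at 0 in the CD39/CD46/CD55/TBM transplant. Of 7 principal cell and 6 intercalated cell markers measured none fell or rose. At an unadjusted p under 0.05, 0 of the principal cell markers were lower or higher, and 0 of the intercalated cell markers were lower and 2 higher. DESeq2's Wald test called 1 intercalated cell marker higher and no other of these, and limma voom called 0. The principal cell sum was 133 and 109 scaled CPM in the transplanted kidneys and 133 and 80.6 in the untransplanted ones, with AQP3 at 0 in 3 of the 4 libraries and at 1 count in the other. The intercalated cell sum was 457 and 412 in the transplanted kidneys and 548 and 495 in the untransplanted ones. The median log2 fold change of that list was 0.49, opposite in direction to its sum. By the 2-fold rule within CD39/CD46/CD55/TBM, 3 principal cell markers were lower and 2 higher, and 2 intercalated cell markers lower and 2 higher. Within CD39/CD55 these were 0 and 1, and 1 and 2. Over all genes 16.3% were lower and 15.9% higher in the first genotype, and 13.7% and 13.2% in the second. Of 10 tubular injury markers measured 4 rose, and their sum was 5134 and 2247 scaled CPM in the transplanted kidneys and 261 and 383 in the untransplanted ones. The leukocyte sum was 8.02 and 5.25 in the transplanted kidneys and 29.1 and 32.1 in the untransplanted ones, and 2 of 5 measured markers fell. These are counts at pig genes, so leukocytes of the primate recipient may be missed or miscounted. Podocyte markers summed to 190 and 108 in the transplanted kidneys and 387 and 325 in the untransplanted ones, and 2 of 6 fell. Endothelial markers summed to 184 and 185 in the transplanted kidneys and 284 and 332 in the untransplanted ones, and 1 of 8 fell. Stromal markers summed to 330 and 572 in the transplanted kidneys and 547 and 943 in the untransplanted ones, and 1 of 8 fell. The part of these changes in the levels of the 10 members was not tested.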

How the data were processed

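Each library has a deposited table of read counts by gene symbol, whole numbers to which the authors applied no normalization. Per the labels' protocols, phenol/chloroform was used to extract RNA and a Lexogen Quant-Seq kit to build libraries, a name usually given to kits that read 3' ends. The submitters' processing notes list Bowtie2, bedtools and the build Sscrofa11.1. The sources used here do not give versions, strand, or how reads matching several genes or the primate recipient were treated, so primate reads may have been counted at pig genes or lost.

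For 81 symbols present on several lines the lines were added up, and no member was among them. All 26466 symbols were in the RefSeq table of Sscrofa11.1, from which coordinates come. A gene was tested if any library gave it 10 counts, which left 18168 genes. Counts were scaled by TMM factors (1.00, 1.07, 0.957 and 0.975 for transplanted CD39/CD46/CD55/TBM, transplanted CD39/CD55, and the untransplanted kidneys in the same order). A floor of 3 counts is 0.219 to 0.29 scaled CPM. Comparisons of 2 libraries with 2 used edgeR 4.0.16 (glmQLFit, glmQLFTest; R 4.3.3), with Benjamini-Hochberg adjustment over all genes and a threshold of 0.05. The SE is the absolute log2 fold change divided by the square root of F and restates that test. The libraries averaged in such a test are not replicates of a group, so their spread includes the other factor, and nothing says they come from separate animals of one group. Single pairs have 1 library a side and no p-value. Their log2 ratios use a prior count of 0.5 and an exact 95% interval (Clopper-Pearson, conditional binomial). Intervals cover counting error only and no spread between kidneys. No molecular identifiers are mentioned, so reads copied in amplification may be counted as separate, and the intervals may be too narrow. Alternatives were DESeq2 1.42.0 size factors and Wald test, limma 3.58.1 voom, upper-quartile and total-count scaling, ribosomal RNA loci and mitochondrial genes left out, other filters, a block for the other factor, a prior count of 2 and leaving out each library. The edgeR procedure was also run on simulated data with known changes. There the libraries of a state shared the same true levels, while the real ones differ in genotype. That run therefore does not show how well the test performs on these libraries.

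The members, lists and tests were chosen with earlier results of these data known. All 10 members are named. Of the other genes of the thick ascending limb, distal convoluted tubule and connecting tubule and of the paralogs, those past the threshold are named, or the 2 of largest fitted change where none passed. Markers of other cells are given by counts and sums. SLC22A12, GATM, SLC22A6 and AQP3 were singled out after their values were seen.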

Additional observations from a re-analysis of the deposited data

Results flagged for a closer look

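For 3 members the log2 ratio of transplanted to untransplanted had opposite signs in the genotypes, and the difference was not tested, since each ratio rests on 1 library a side. CLDN16 had 1.75 in CD39/CD46/CD55/TBM and -1.0 in CD39/CD55, with both counting intervals off 0. KCNJ1 had 0.37 in CD39/CD46/CD55/TBM and -0.035 in CD39/CD55. TRPM6 had -0.94 in CD39/CD46/CD55/TBM and 0.018 in CD39/CD55. For KCNJ1 and TRPM6 the value in CD39/CD55 had a counting interval that includes 0. With upper-quartile or total-count scaling the KCNJ1 value in CD39/CD55 turned to 0.092 and 0.10, so its opposite sign depends on the scaling.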

How the results depend on the processing

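Over 13 alternatives to the test of transplanted against untransplanted kidneys, SLC12A3, EGF, WNK4, PVALB and UMOD were lower in the transplanted kidneys in each, and SLC12A3, EGF and WNK4 passed in each. With upper-quartile or total-count scaling the median log2 fold change of all genes was 0.13, against 0.028 as reported. Over all genes, 860 fell and 413 rose in DESeq2's Wald test, 1035 and 543 with no filter, 316 and 148 with at least 50 counts, and 1681 and 1124 with genotype as a block, against 493 and 225 as reported. Leaving out a library gave 392 to 1349 that fell and 186 to 1051 that rose, with the highest counts without the transplanted CD39/CD55 library, and 3 to 5 members that fell. Among the members that did not pass, KCNJ10, CLDN16, KCNJ1 and SLC12A1 changed sign when a library was left out, while TRPM6 and UMOD did not. The ranges were -0.082 to 1.14 for KCNJ10, -0.45 to 1.24 for CLDN16, -0.078 to 0.42 for KCNJ1 and -0.18 to 0.53 for SLC12A1. In the test of CD39/CD46/CD55/TBM against CD39/CD55, 5 genes were lower and 12 higher in DESeq2's Wald test, and 171 and 133 with state as a block. Leaving out a library gave 0 to 4 lower and 0 to 14 higher, with no member in any. Fitted log2 fold changes of members changed sign for SLC12A3 (-0.60 in limma voom, -0.53 with the block), CLDN16 (-0.11, -0.061), WNK4 (0.083, 0.052) and PVALB (0.21, 0.097). Leaving out a library also turned signs, over -3.17 to 0.33 for UMOD, -1.78 to 1.49 for EGF, -1.39 to 1.61 for WNK4, -1.42 to 2.10 for PVALB, -5.62 to 4.23 for SLC12A3, -1.03 to 0.72 for CLDN16 and -0.17 to 0.77 for TRPM6. The cause of these sign changes was not tested. Fits with a library left out have no term for state, and their genotypes then hold unlike shares of transplanted libraries. The change with transplantation therefore enters their fitted genotype difference. Each such fit sets 1 library against 2. The lone library there is assumed to vary like the others. In the difference of changes between genotypes, 2 members, SLC12A3 and TRPM6, were lower in place of 1 with upper-quartile and with total-count scaling. Libraries could not be paired by replicate number, since the labels carry none, and the fit with genotype as a block, given above, pairs libraries by genotype only. Depth limits KCNJ10 and PVALB most, with as few as 16 counts in a library.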
